A study of Arabidopsis thaliana with 18 samples.

Results

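*U2AF65A* (AT4G36690) and *U2AF65B* (AT1G60900) are the paralogous Arabidopsis genes for U2AF65, the large subunit of the splicing factor U2AF (U2 snRNP auxiliary factor). Every splicing event that the deposited RNA-seq table lists under either identifier was taken, which gave 4 of the 399 listed events and 2 of the 334 listed genes. Each gene contributed 1 intron retention (IR) event and 1 alternative 3′ splice site (A3) event, beside 155 IR and 130 A3 events in the whole table. The rule goes by gene identifier, and the genes themselves were picked with earlier results of these data known.

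The study asked how a rise in ambient temperature alters splicing, and whether loss of an enzyme that writes the histone mark H3K36me3 changes that response. Plants of the T-DNA line *sdg8-2*, of the T-DNA line *sdg26-1* and of wild type (WT, Col-0) were raised for 5 weeks at 16 °C, with 8 h of light and 16 h of darkness. They were then either moved to 25 °C for 1 day or left at 16 °C. Each of the 6 combinations had 3 samples, 18 in all, and a sample was dissected tissue enriched for the shoot apical meristem (SAM), with young leaves, from about 10 plants. All groups thus shared the Col-0 background, the short days and the 16 °C growth phase, and each mutant was represented by 1 insertion line. SDG8 and SDG26 are SET domain histone methyltransferases. The table holds splicing events only, with none of *SDG8* or *SDG26*, so neither the mutations nor the tissue could be checked against marker genes.

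The measure was PSI (percentage spliced in), given as a fraction from 0 to 1, which estimates how much of the RNA spanning an event is in the spliced-in form. For an IR event the spliced-in form is taken here as the transcript that keeps the intron. For an A3 event the table does not state which of the acceptor sites counts as spliced in, so a lower A3 PSI is reported as such, without naming the site that gained. For each event and condition the table holds 1 PSI value, rounded to 2 decimals, which is the authors' estimate from the merged replicates. The table thus gives no replicate spread for any value, and no difference below was tested here. Read depth per event is unknown. Rounding alone can move a difference of 2 values by up to 0.01 and a difference of differences by up to 0.02.

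The listing itself is selective. Every one of the 399 events carries the authors' call of a temperature difference in at least 1 genotype. By the study's methods, a call rested on a comparison of the pooled samples and on read support. PSI also had to differ less among replicates than between the conditions. Both *U2AF65A* events are listed through their call in *sdg8-2*, and both *U2AF65B* events through their call in WT. The size of a change in the genotype that brought an event into the table is favoured by that selection, which bears on each comparison of genotypes made here.

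U2AF marks the end of an intron for the spliceosome. Its large subunit binds the polypyrimidine tract just upstream of the 3′ splice site, its small subunit contacts the AG dinucleotide at the intron's end, and together they help the U2 snRNP to settle on the branch point. U2AF65 thus takes part in choosing 3′ splice sites, and many splicing factors of plants and animals are known to be alternatively spliced themselves.

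In the RefSeq annotation of TAIR10.1, *U2AF65A* lies on chromosome 4 from 17293938 to 17297761, on the reverse strand, with 4 transcripts. *U2AF65B* lies on chromosome 1 from 22423894 to 22428053, on the forward strand, with 1 transcript. The table places the coding regions at 17294139 to 17297609 and at 22424008 to 22427806, with proteins of 551 and 589 residues, and the same ends and lengths were found in TAIR10.1. The full-length forms of both genes have 13 exons. Of the 11 inner exons, 8 have the same length in both genes, and 68.8% of the aligned coding positions (1249 of 1816) are identical.

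Intron 11 is the place where the annotation of *U2AF65A* holds both kinds of event. The annotated transcripts either remove 273 bases, remove only the first 100 bases by using a nearer acceptor, or keep the intron whole. The table does not give the position of an event inside its gene, and whether the listed events belong to intron 11 was not tested. Another transcript of *U2AF65A* differs at a different place, with exon 2 shorter by 49 bases at its end and exon 3 shorter by 17 bases at its start. *U2AF65B* has no annotated retained intron and no annotated alternative acceptor, and its intron 11 of 107 bases, flanked as in *U2AF65A* by exons of 136 and 68 bases, is shown for comparison only.

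The intron 11 sequences are printed 5′ to 3′ on the gene's strand, from RefSeq TAIR10.1, because they hold the annotated acceptors. Capitals mark the GT that opens the intron and the AG of each annotated acceptor. The first is chr4:17294431-17294703 on the reverse strand and the second is chr1:22427415-22427521 on the forward strand.
U2AF65A intron 11: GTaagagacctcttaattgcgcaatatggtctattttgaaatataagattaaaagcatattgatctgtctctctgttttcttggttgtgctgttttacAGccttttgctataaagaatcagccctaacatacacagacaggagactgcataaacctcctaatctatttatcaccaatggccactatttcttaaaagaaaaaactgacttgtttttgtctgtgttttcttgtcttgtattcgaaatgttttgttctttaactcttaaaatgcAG
U2AF65B intron 11: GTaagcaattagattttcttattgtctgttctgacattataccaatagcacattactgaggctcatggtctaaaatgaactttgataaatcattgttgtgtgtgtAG

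The tract that U2AF65 binds lies directly upstream of an acceptor. The last 22 bases of the intron up to the nearer site of *U2AF65A*, its farther site and the acceptor of *U2AF65B* intron 11 are shown so that these stretches can be compared, with the AG in capitals.
U2AF65A nearer site: tcttggttgtgctgttttacAG
U2AF65A farther site: ttctttaactcttaaaatgcAG
U2AF65B intron 11: taaatcattgttgtgtgtgtAG
In the 20 bases upstream of the AG, the nearer site of *U2AF65A* has 14 pyrimidines, 11 of them T, the farther site 13 with 9 T, and the site of *U2AF65B* 11 with 10 T. Among 130872 annotated Arabidopsis introns of at least 60 bases that run from GT to AG, the median was 13 pyrimidines. Fewer pyrimidines than at the nearer site were found in 62.9% of these introns, fewer than at the farther site in 46.3%, and fewer than at the *U2AF65B* site in 18.1%. With its farther site, intron 11 of *U2AF65A* is longer than 84.7% of them, whereas the 107 bases in *U2AF65B* are close to the median length of 102 bases.

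The choice at intron 11 of *U2AF65A* alters the C-terminal end of the annotated protein. In transcripts with the longer exons 2 and 3, use of the farther site gives 573 residues, and use of the nearer site gives 565. The 173 bases between the sites are not a multiple of 3, and with the nearer site the reading frame ends 9 bases past the farther site. The transcript with shorter exons 2 and 3 also uses the farther site and has 551 residues, the length given for the coding region above. Keeping the intron, with the longer exons 2 and 3, gives 542 residues, with a coding sequence that ends 13 bases past the nearer site. The amino acid sequences were not used here.

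**Figure D1:**
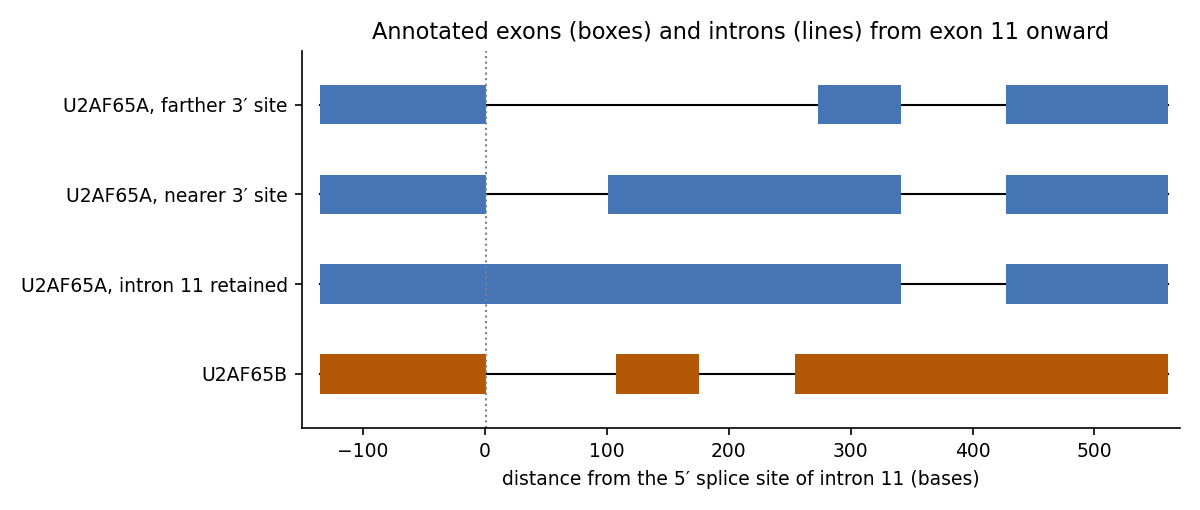
Annotated exons (boxes) and introns (lines) of *U2AF65A* and *U2AF65B* from exon 11 onward, drawn to scale by distance in bases from the 5′ splice site of intron 11 (dotted line). The last exons run on past the right edge. The acceptors of *U2AF65A* lie 100 and 273 bases downstream of the 5′ splice site, and that of *U2AF65B* lies at 107 bases.

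After 1 day at 25 °C the IR value was higher and the A3 value lower than at 16 °C, in both genes and all 3 genotypes. Within this listing, the authors called these changes for *U2AF65A* only in *sdg8-2* and for *U2AF65B* only in WT. In the other genotypes their call was no for both events of the gene. From a separate WT time series, the study names both genes among splicing regulators whose splicing differed after the temperature change. It also names *U2AF65B* among genes whose temperature response of splicing was disturbed in the mutants. The time-series events were not compared with those described here. The IR event of *U2AF65A* (event number 12315) stood at 0.46, 0.41 and 0.39 at 25 °C in *sdg8-2*, *sdg26-1* and WT, against 0.29, 0.30 and 0.28 at 16 °C. All 3 values at 25 °C were above all 3 values at 16 °C, and the change was 0.17 in *sdg8-2*, 0.11 in *sdg26-1* and 0.11 in WT. The values at 25 °C spanned 0.07 over the genotypes, and those at 16 °C spanned 0.02.

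The A3 event of *U2AF65A* (event number 12316) went the other way, with 0.43, 0.55 and 0.57 at 25 °C in *sdg8-2*, *sdg26-1* and WT, against 0.66, 0.69 and 0.68 at 16 °C. Its change was -0.23 in *sdg8-2*, -0.14 in *sdg26-1* and -0.11 in WT. Again the temperatures did not overlap over the genotypes. The span over genotypes was 0.14 at 25 °C, where *sdg8-2* was the lowest, and 0.03 at 16 °C.

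In *U2AF65B*, the IR event (event number 10780) had the highest levels of all 4 events at 25 °C, with 0.64 in *sdg8-2*, 0.57 in *sdg26-1* and 0.59 in WT, against 0.57, 0.54 and 0.44 at 16 °C. Here the temperatures touched, because the 16 °C value of *sdg8-2* equalled the 25 °C value of *sdg26-1*. The change was 0.07 in *sdg8-2*, 0.03 in *sdg26-1* and 0.15 in WT. In contrast to *U2AF65A*, the genotypes were closer together at 25 °C, with a span of 0.07, than at 16 °C, with a span of 0.13.

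The A3 event of *U2AF65B* (event number 10781) was at 0.39, 0.41 and 0.30 at 25 °C in *sdg8-2*, *sdg26-1* and WT, against 0.52, 0.54 and 0.52 at 16 °C. Its change was -0.13 in *sdg8-2*, -0.13 in *sdg26-1* and -0.22 in WT, and the temperatures did not overlap. At 25 °C *sdg8-2* stood 0.09 and *sdg26-1* 0.11 above WT, and at 16 °C the genotypes were within 0.02 of each other.

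**Figure D2:**
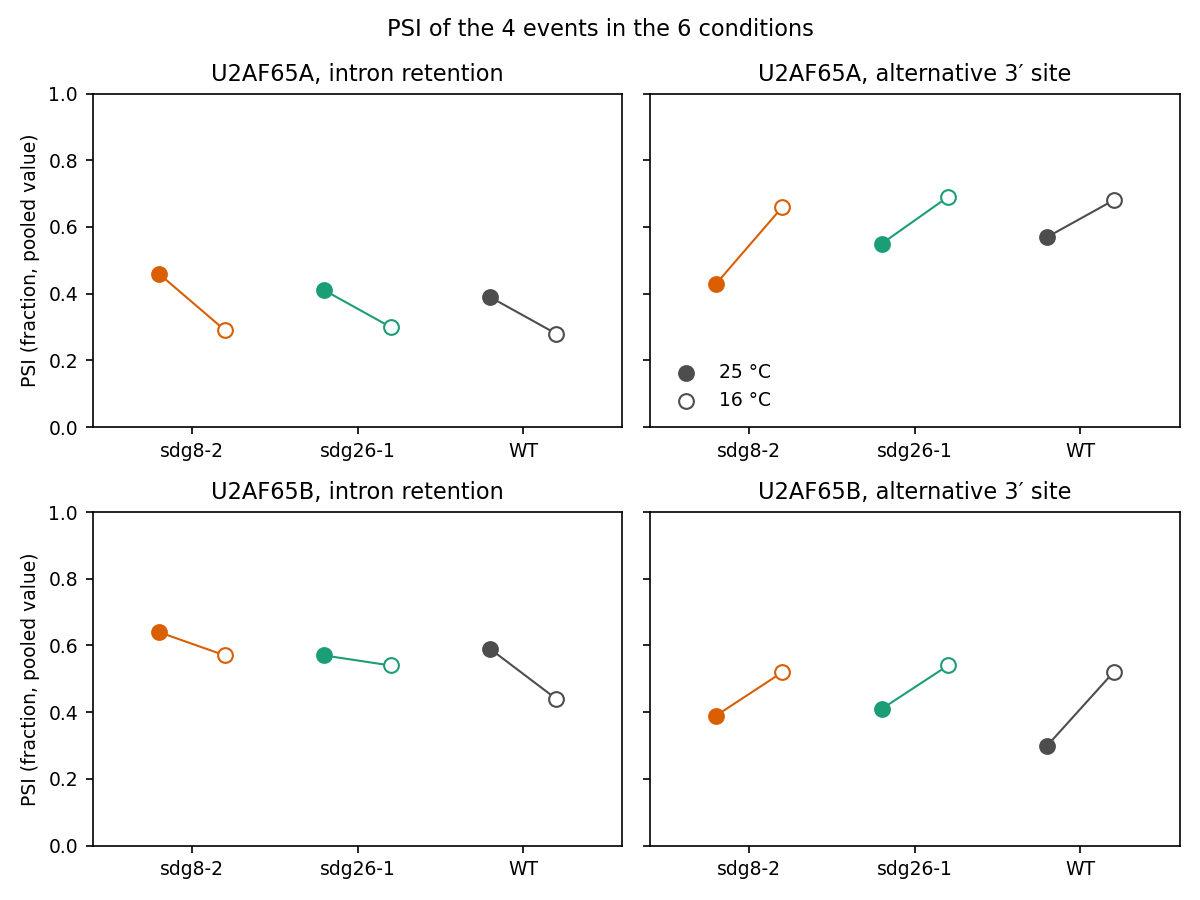
PSI as a fraction (vertical axis, pooled value of 3 samples) of the IR and A3 events of *U2AF65A* (top) and *U2AF65B* (bottom) in each genotype, with 25 °C as filled and 16 °C as open circles joined by a line. In every panel and genotype the 25 °C circle is the higher one for IR and the lower one for A3, with the steepest lines for changes of -0.23 in the *U2AF65A* A3 event in *sdg8-2* and -0.22 in the *U2AF65B* A3 event in WT.

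To set the sizes in context, a change of at least 0.1 was counted among all listed events of the same type. In *sdg8-2*, 1 of the 2 IR events of these genes was higher at 25 °C by that much, beside 17.4% of the 155 listed IR events, and 2 of 2 A3 events were lower, beside 34.6% of the 130 listed A3 events. In *sdg26-1* the counts were 1 of 2 IR events, beside 20.0%, and 2 of 2 A3 events, beside 34.6%. In WT, 2 of 2 IR events were higher by 0.1 or more, beside 23.9%, and 2 of 2 A3 events were lower, beside 33.8%. With 2 events of a type, and with a listing chosen by the authors' call of a temperature difference, these shares are a description only.

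The direction of the IR changes was the less common one in the table. IR events with a higher PSI at 25 °C numbered 55 in *sdg8-2*, 52 in *sdg26-1* and 58 in WT, and those with a lower PSI numbered 97, 100 and 95 in the same order, with median changes of -0.04, -0.07 and -0.03. Lower values at 25 °C were also somewhat more frequent among A3 events, at 71 of 130 in *sdg8-2*, 72 in *sdg26-1* and 70 in WT. In these rankings the *U2AF65A* IR change in *sdg8-2* was exceeded by 10 listed IR events, and its change in WT by 29. The *U2AF65B* IR change in WT was exceeded by 17 listed IR events, and its change in *sdg26-1* by 47. For A3, 11 listed events had a more negative change than *U2AF65A* in *sdg8-2* and 36 had one in WT, while 10 had a more negative change than *U2AF65B* in WT and 33 had one in *sdg8-2*.

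**Figure D3:**
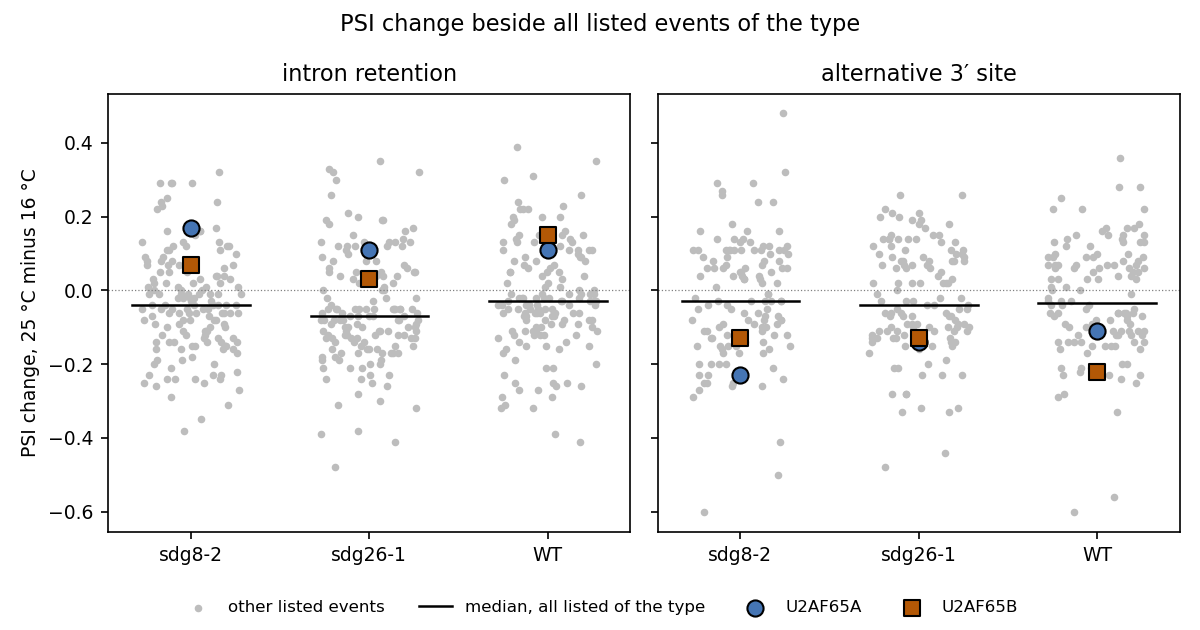
PSI change, 25 °C minus 16 °C (vertical axis), of every listed IR event (left) and A3 event (right) in each genotype, with grey points for other genes, a black line for the median of the type, a blue circle for *U2AF65A* and a brown square for *U2AF65B*. Both genes lie above the median for IR and below it for A3 in all 3 genotypes, inside the range of the other events, and *U2AF65A* is the farther out in *sdg8-2* while *U2AF65B* is the farther out in WT.

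Each mutant was also compared with WT at each temperature, and the patterns of the 2 genes differed. The part of the listing, through *sdg8-2* for *U2AF65A* and through WT for *U2AF65B*, in these patterns was not tested. In *U2AF65A* the larger differences were at 25 °C and in *sdg8-2*. At 25 °C the IR value was 0.46 in *sdg8-2* and 0.39 in WT, a difference of 0.07, and the A3 value was 0.43 in *sdg8-2* and 0.57 in WT, a difference of -0.14. At 16 °C the same differences were 0.01 and -0.02. In *sdg26-1*, all 4 values of *U2AF65A* lay within 0.02 of WT. The A3 difference of *sdg8-2* at 25 °C was exceeded in size by 7 of the 130 listed A3 events, and the IR difference by 35 of the 155 listed IR events.

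In *U2AF65B*, both mutants were above WT for the A3 event at 25 °C and for the IR event at 16 °C. The A3 differences from WT at 25 °C were 0.09 for *sdg8-2* and 0.11 for *sdg26-1*, and those at 16 °C were 0.00 and 0.02. The IR differences from WT at 25 °C had opposite signs, at 0.05 for *sdg8-2* and -0.02 for *sdg26-1*. In plants kept at 16 °C throughout, the IR value was 0.57 in *sdg8-2* and 0.54 in *sdg26-1*, against 0.44 in WT, so that the mutants were higher by 0.13 and 0.10. The A3 difference of *sdg26-1* at 25 °C was exceeded in size by 5 of the 130 listed A3 events. Among the 155 listed IR events, 18 had a larger difference than *U2AF65B* between *sdg8-2* and WT at 16 °C, and 19 between *sdg26-1* and WT.

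A difference from WT of at least 0.05 in either direction was counted in the same way. For *sdg8-2* it was reached by 4 of the 4 events at 25 °C, with the *U2AF65B* IR event exactly at the threshold, beside 38.1% of all 399 listed events, and by 1 of 4 at 16 °C, beside 41.4%. For *sdg26-1* it was reached by 1 of 4 events at 25 °C, beside 32.8%, and by 1 of 4 at 16 °C, beside 33.1%. At 16 °C the event past the threshold was the IR event of *U2AF65B* in both mutants.

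**Figure D4:**
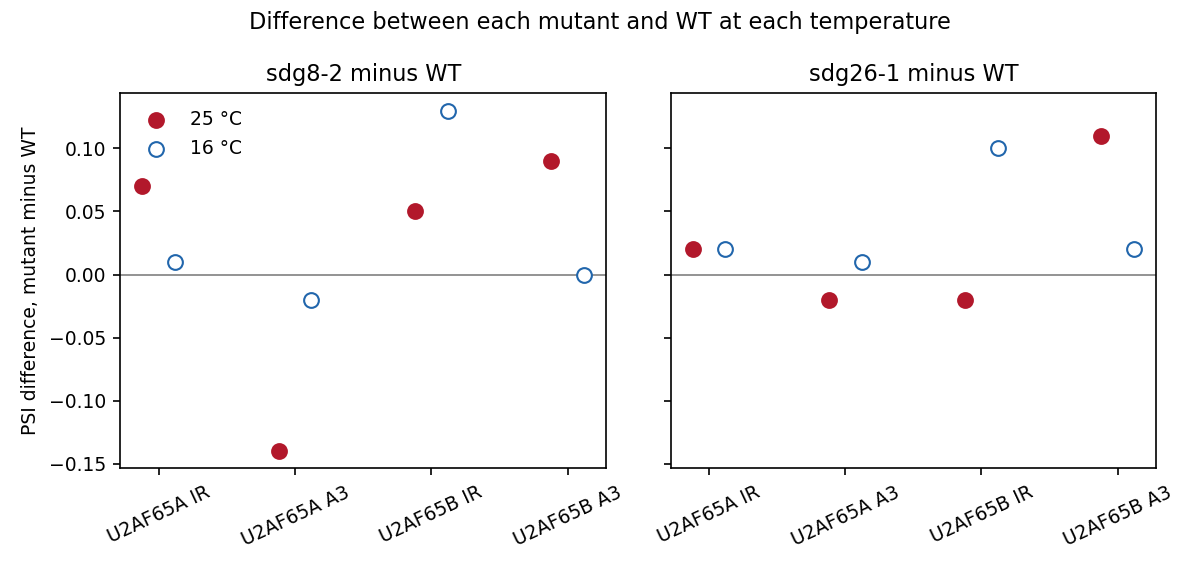
PSI difference between *sdg8-2* (left) or *sdg26-1* (right) and WT (vertical axis) for the 4 events, at 25 °C (filled red) and 16 °C (open blue). The *U2AF65A* events lie more than 0.02 from the zero line only in *sdg8-2* at 25 °C, at 0.07 and -0.14, while the *U2AF65B* A3 event is farthest from it at 25 °C, at 0.09 and 0.11, and its IR event at 16 °C, at 0.13 and 0.10.

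The temperature response of the 2 genes was ordered differently over the genotypes. For *U2AF65A*, the change in *sdg8-2* exceeded that in WT by 0.06 for IR and was more negative by 0.12 for A3, which made it 155% and 209% of the WT change. In *sdg26-1* the *U2AF65A* changes were 100% and 127% of those in WT, with differences of 0.00 and -0.03 beside the 0.02 that rounding can give. For *U2AF65B*, the change was smaller in both mutants. Its IR change was about 47% of the WT change in *sdg8-2* and about 20% in *sdg26-1*, and its A3 change was about 59% of it in each. Rounding can move each change in these ratios by up to 0.01, so the percentages given for both genes are approximate. Differences of change, mutant minus WT, were -0.08 and -0.12 for IR and 0.09 and 0.09 for A3. The larger response of *U2AF65A* was in the genotype through which it is listed, *sdg8-2*, and the larger response of *U2AF65B* was likewise in WT, and the part of the selection in this order was not tested. *sdg26-1* is the genotype that brought neither gene into the table. There, the changes were 0.11 for IR and -0.14 for A3 in *U2AF65A* and 0.03 and -0.13 in *U2AF65B*.

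Levels of the listed events also differed between the paralogs. Whether the events of the 2 genes lie at matching introns, or count the same kind of A3 site as spliced in, is not known. The gaps are thus between listed events, set side by side as a description. The IR value of *U2AF65A* was below that of *U2AF65B* in all 6 conditions, by 0.18 in *sdg8-2*, 0.16 in *sdg26-1* and 0.20 in WT at 25 °C, and by 0.28, 0.24 and 0.16 at 16 °C. The A3 value of *U2AF65A* was above that of *U2AF65B* in all 6 conditions, by 0.04, 0.14 and 0.27 at 25 °C and by 0.14, 0.15 and 0.16 at 16 °C, in the same order of genotypes. The narrowest gap, in *sdg8-2* at 25 °C, was where the A3 value of *U2AF65A* was lowest, and the widest, in WT at 25 °C, was where that of *U2AF65B* was lowest. Since PSI is a share within an event, these values say nothing on how much transcript either gene made.

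Within each gene the IR and A3 changes had opposite signs, which was looked at beside the other genes listed with both types. There were 13 such genes, 11 of them other than *U2AF65A* and *U2AF65B*, with 20 pairs of an IR and an A3 event. Every pair of a gene was opposed in 5 genes in *sdg8-2*, 6 in *sdg26-1* and 6 in WT, counts that include both paralogs. Beside the paralogs, 3 genes were opposed in every pair and every genotype, all with IR higher and A3 lower at 25 °C. *AT2G38260*, annotated as a transcribed pseudogene, had IR changes of 0.29, 0.21 and 0.26 and A3 changes of -0.27, -0.16 and -0.23 in *sdg8-2*, *sdg26-1* and WT. *AT3G01540*, the gene of the DEAD box RNA helicase DRH1, had 2 IR events, with changes of 0.07, 0.04 and 0.08 in one and 0.13, 0.11 and 0.20 in the other, and an A3 event with changes of -0.08, -0.03 and -0.06. The third was *AT1G78865*, a noncoding RNA locus, whose 2 A3 events had changes of -0.60 and -0.56 in WT.

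The events of *U2AF65A* and of *U2AF65B* carry consecutive event numbers, which was the case in none of the 18 pairs of other genes, where the numbers lay 2 to 15 apart. After the values had been seen, the IR and A3 values of each pair were also added. For *U2AF65A* the sums ran from 0.89 in *sdg8-2* at 25 °C to 0.99 in *sdg26-1* at 16 °C, and for *U2AF65B* they ran from 0.89 in WT at 25 °C to 1.09 in *sdg8-2* at 16 °C. In the pairs of other genes the sums ranged from 0.22 to 1.70. By the mean distance of the sum from 1, *U2AF65A* was the fourth closest of the 20 pairs, at 0.048, and *U2AF65B* the sixth, at 0.062. Whether the IR and A3 events of a gene rest on the same reads or the same intron was not tested. The counts over the 4 events include both values of each gene, so they are not counts of separate observations.

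**Figure D5:**
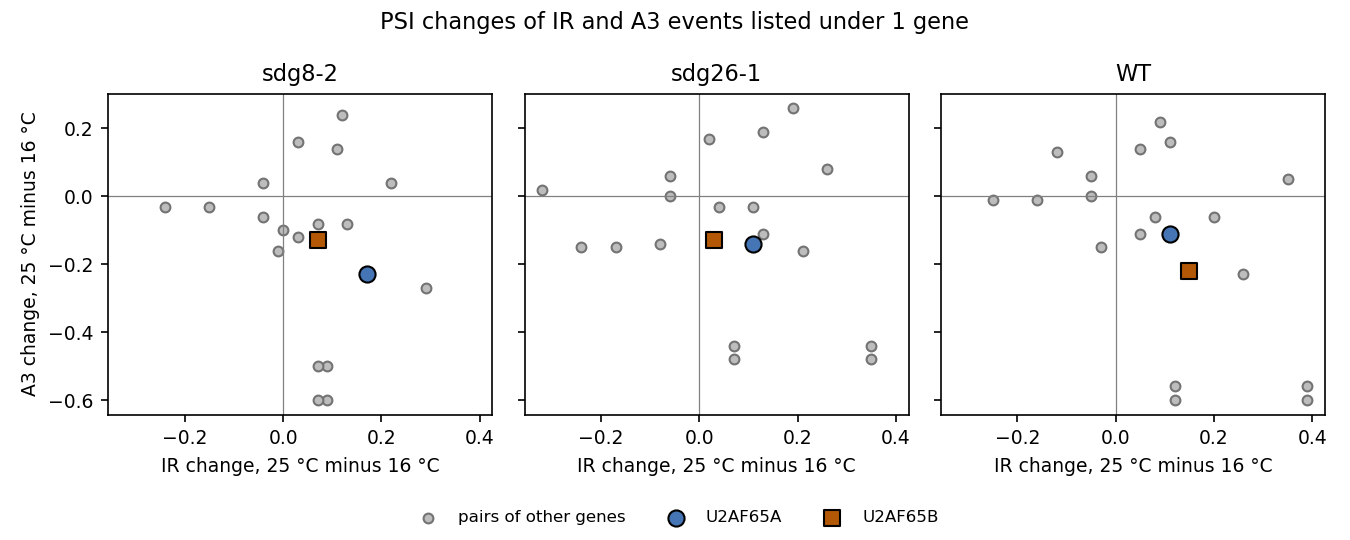
Change of the A3 event (vertical axis) against change of the IR event (horizontal axis) of the same gene, both as PSI at 25 °C minus 16 °C, for all 20 pairs in each genotype, with *U2AF65A* as a blue circle, *U2AF65B* as a brown square and pairs of the other 11 genes in grey. Both genes lie in the lower right quadrant in all 3 panels, with *U2AF65A* farther from the origin in *sdg8-2* and *U2AF65B* farther in WT.

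To find listed events with a like pattern, the 6 PSI values of each event were centred on their mean, and events were ordered by the root mean square distance to each of the 4 events. This likeness is over 6 pooled values and is a description. Nearest to the *U2AF65A* IR event was an IR event of *AT2G02770*, annotated as a phosphopantetheinyl transferase, at a distance of 0.0126, with changes of 0.16, 0.11 and 0.15 in *sdg8-2*, *sdg26-1* and WT, followed by A3 events of *AT5G14440* at 0.0173 and *AT3G50240* at 0.0189. The *U2AF65A* A3 event was nearest to A5 (alternative 5′ site) events of *AT4G38090* and *AT3G24760*, each at 0.0203, and to an A3 event of *AT5G06980*, known as LNK4, at 0.0261. The changes of *AT4G38090* were -0.19, -0.12 and -0.14.

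The *U2AF65B* IR event had the closest match among the 4 events, an IR event of *AT4G24500*, which RefSeq names *SIC* (*SICKLE*), at 0.0094. Its changes of 0.07 in *sdg8-2*, 0.03 in *sdg26-1* and 0.15 in WT were those of *U2AF65B*. Next were an IR event of *AT1G78865* at 0.0211 and an A5 event of *AT4G32060* at 0.0222. For the *U2AF65B* A3 event the nearest were IR events, one of *AT3G24982* (*RLP40*) at 0.0311, with changes of -0.06, -0.17 and -0.25, and a pair listed under *AT2G11240.1* at 0.0335 each.

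U2AF65 works beside other proteins of the early spliceosome, and a list of 42 genes for these and related factors was searched in the table. The partners at the branch point and 3′ splice site, the small subunits U2AF35A and U2AF35B, SF1 and SF3B1, had no listed event (0 of 4), nor had the 8 genes for U1 and U2 snRNP proteins. Of the 18 genes for SR proteins, which bind exonic sequences and help to place U1 snRNP and U2AF, 9 had an event, and of the 3 genes for polypyrimidine tract binding (PTB) proteins 1 had. In all, 10 of the 42 genes had an event, 12 events together. For comparison, 313 of the 22814 genes with an annotated mRNA and intron in TAIR10.1, or 1.37%, had a listed event. Listing requires a call in at least 1 genotype and enough reads, so these shares also depend on expression, which was not compared, and the list was chosen with earlier results known. That a gene had no listed event does not show that its splicing was unaltered.

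Of these 12 events, 5 were higher by at least 0.1 at 25 °C and 2 lower in *sdg8-2*, 3 higher and 5 lower in *sdg26-1*, and 4 higher and 2 lower in WT. Over all 399 listed events of any type, 24.3% were higher by that much and 31.8% lower in *sdg8-2*, 24.8% higher and 34.8% lower in *sdg26-1*, and 23.3% higher and 27.8% lower in WT. The median change of the 12 events was 0.015 in *sdg8-2*, -0.02 in *sdg26-1* and 0.01 in WT, beside -0.03, -0.05 and -0.03 over all listed events. The median absolute change was 0.11, 0.14 and 0.09, beside 0.11, 0.11 and 0.10. Changes in the direction seen for *U2AF65A* and *U2AF65B* were present in the IR event of *RS40*, at 0.13, 0.08 and 0.11, but not in the IR events of *SR34b*, at -0.13, -0.20 and -0.07 in one and -0.09, -0.21 and -0.01 in the other.

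The 3 A3 events of SR genes had changes of the opposite sign to those of *U2AF65A* and *U2AF65B*. The changes in *sdg8-2*, *sdg26-1* and WT were 0.11, 0.12 and 0.13 for *RS2Z33*, 0.12, 0.14 and 0.17 for *SR30*, and 0.11, 0.06 and 0.06 for *SR34*. As the spliced-in site is not stated, the sign of an A3 change in one gene need not mean the same kind of site as in another. The other SR events were exon skipping (ES) or A5 events. The ES events changed by -0.21, -0.14 and -0.18 in *RS40*, by 0.17, 0.19 and 0.17 in *SCL33*, by -0.09, -0.07 and -0.06 in *RS31*, and by 0.06, 0.03 and 0.03 in *RS41*, and the A5 event of *RS31a* by -0.03, -0.25 and -0.17.

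*PTB1*, whose protein binds pyrimidine-rich stretches of the kind that U2AF65 also binds, had an ES event with 0.76 in *sdg8-2*, 0.66 in *sdg26-1* and 0.78 in WT at 25 °C, against 0.83 in each genotype at 16 °C. Its change was thus -0.17 in *sdg26-1*, -0.07 in *sdg8-2* and -0.05 in WT. The order of genotypes differed from that of both U2AF65 genes, in which *sdg26-1* had at no event the largest change.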

How the data were processed

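Poly(A) RNA of 18 samples in 6 groups was sequenced as stranded libraries. TopHat2, Cufflinks and the TAIR10 genome are named in the submitters' processing notes, and MISO in the study's methods, with versions not given in the sources used here. With MISO, the authors estimated PSI on the merged replicates of each condition, and the deposited values are fractions rounded to 2 decimals. The table's own differences and its yes or no calls were not used, except to state how events came to be listed and in which genotypes they were called. Differences were recomputed as 25 °C minus 16 °C and as mutant minus WT. No test was run, since the table holds pooled values. The members, the splicing factor list and the thresholds of 0.1 and 0.05 were chosen with earlier results of these data known. Other genes were named by 3 rules, namely the 3 listed events nearest to each event of *U2AF65A* and *U2AF65B*, the splicing factor list, and genes with opposed IR and A3 events of consecutive numbers, of which the table had no other. The genes opposed in every genotype were named after their values had been seen. Of the 42 list genes, 42 were found in RefSeq. Coding ends and protein lengths were the same in the table and in TAIR10.1 for 297 of 315 genes. The computation was tested on simulated data. Alternatives were other thresholds, log odds in place of differences, the limits of rounding, and stricter pairs. Python 3.11.15 with numpy 2.4.6, pandas 2.3.3, Biopython 1.88 and matplotlib 3.10.9 was used.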

Additional observations from a re-analysis of the deposited data

How the results depend on the processing

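Of 103 values under the alternatives, covering 46 results, 92 were classed as the same, 11 as moved and 0 as reversed. A count was classed as the same when it stayed near the main count, even if not equal. A difference of change was classed by its sign only, and the other values by their threshold. Most alternatives were rounding shifts of 0.01 or 0.02, which leave little room for a reversal, and a count cannot reverse. The tally is thus no measure of how firm the results are. With a threshold of 0.15, 0 of the 4 events were past it in *sdg26-1* and 2 in WT, against 3 and 4 at 0.1. With a threshold of 0.2, 1 event was past it in *sdg8-2*, 0 in *sdg26-1* and 1 in WT. With a threshold of 0.1 for differences from WT, 1 of 4 events was past it in *sdg8-2* at 25 °C, against 4 at 0.05, and rounding alone allows the *U2AF65B* IR difference of *sdg8-2* at 25 °C to be 0.04, below the threshold. Genes with every IR and A3 pair opposed numbered 2 in *sdg8-2*, 2 in *sdg26-1* and 2 in WT when only pairs of consecutive numbers were kept, which are *U2AF65A* and *U2AF65B*, and 3 in *sdg26-1* when both changes had to reach 0.05. *U2AF65B* was not among those 3, because its IR change in *sdg26-1* was 0.03, while *U2AF65A* was. On the log odds scale the differences of change had the same sign as on the PSI scale, at 0.24 and -0.47 for *U2AF65A* in *sdg8-2*, except that the 0.00 of the *U2AF65A* IR event in *sdg26-1* became -0.01. No paired analysis was possible because the table holds 1 pooled value per condition, and replicates could not be left out in turn for the same reason. Read depth is unknown, so no counting interval is given.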
